A study of Homo sapiens with 4 samples.

Results

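The off-target sites described here matched the VEGFA site 2 guide beside an NGG motif only with 1 nucleotide bulging out of the guide–DNA duplex. That holds within the mismatch limits given below. They were taken from TTISS-seq break lists of U2OS, a human bone tumour line that originated in a sarcoma of the tibia. In TTISS-seq, cells repair their double-strand breaks (DSBs) with a short double-stranded DNA tag in place, and the genomic DNA beside the tag is sequenced. The 4 libraries were 2 VEGFA site 2 replicates, labelled as digested with that single guide RNA (sgRNA), and 2 non-target replicates, labelled undigested, whose guide, if any, is not named. All 4 carry the genotype label WT, and nothing in the labels says that replicates were separate cultures. A site became a member when no ungapped protospacer with 7 or fewer mismatches beside an NGG protospacer-adjacent motif (PAM) lay within 10 nt, and an alignment with a single 1-nt gap and 5 or fewer mismatches placed the expected cut within 3 nt of the listed break. After merging listed positions within 30 nt, 64 of the 606 loci of the VEGFA site 2 libraries (10.6%) met this rule, out of 689 loci in all 4 libraries. They made up 64 of the 211 loci without an ungapped match (30.3%, 95% Wilson interval 24.5% to 36.8%). The other 147 of those loci had neither match, and 395 loci had an ungapped match. With any 3 bases allowed as PAM, 50 of the 64 members also had an ungapped match with 7 or fewer mismatches.

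Streptococcus pyogenes Cas9 first binds the NGG PAM and then pairs the guide with DNA from the PAM outwards, so that the bases nearest the PAM (the seed, at the high guide numbers) are the least tolerant of mismatches. Cas9 can also cut where the strands differ in length by a base. When the DNA holds an extra base it forms a DNA bulge, and when the guide holds a base without a partner it forms an RNA bulge. Off-target searches that count mismatches without gaps do not see such sites as close matches to the guide. Guide positions are counted here from 1 at the 5′ end to 20 beside the PAM.

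Targets that the results turn on are shown so that their lengths, PAMs and shared stretches can be compared. They are hg38 reference sequence, written 5′ to 3′ on the strand that matches the guide, without the PAM in the coordinates and with the PAM as the last 3 bases of the sequence. Capitals mark the PAM. A target with a DNA bulge is 21 nt long and one with an RNA bulge 19 nt, against 20 nt for the guide.
DNA bulge after guide positions 16 to 18, chr5:134226287-134226307, minus strand: ttcccccaccaccccgccctcCGG
DNA bulge after positions 16 to 18, chr2:5692243-5692263, minus strand: ccgcccctccaccccgccctcCGG
DNA bulge after position 18 or 19, chr7:131106800-131106820, plus strand: ggccccacccaccccgccttcTGG
DNA bulge after position 15 or 16, chr10:124143002-124143022, minus strand: ctatccctcgaccccggcctcTGG
DNA bulge after position 15, chr17:9714999-9715019, minus strand: cacttcctccaccccagcctcTGG
DNA bulge after positions 11 to 15, chr7:151252683-151252703, plus strand: gactacctcaacccccgcctcTGG
DNA bulge after positions 11 to 16, chr18:28388249-28388269, plus strand: gaccccatccacccccacctcTGG
RNA bulge at position 19, chr17:40092315-40092333, minus strand: gtccccctcccccccgcccAGG
RNA bulge at position 19, chr1:21398301-21398319, plus strand: gacccccaccacccctcccCGG
RNA bulge at 1 of positions 16 to 18, chr1:39766866-39766884, minus strand: gaccaccaccaccccactcAGG
RNA bulge at position 17 or 18, chr4:7192037-7192055, plus strand: gcacccccccaccccgctcCGG
RNA bulge at position 16, chr19:14535854-14535872, minus strand: gatcccctccaaccccctcAGG
RNA bulge at position 9 or 10, chr14:77228326-77228344, plus strand: ctggacctcaccccgcctcAGG
Where the gap falls in a run of the same base, it cannot be placed at 1 position, and the range is given.

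RNA bulges were the more frequent kind, with 46 members against 18 DNA bulges, and no member matched equally well with both. The listed counts of the members summed to 46341 in VEGFA site 2 replicate 1 and 56047 in replicate 2. These were 1.62% and 1.76% of all listed counts (mean 1.69% ± 0.0974, SD, n = 2), with Wilson intervals of 1.61% to 1.64% and 1.75% to 1.78%. In non-target replicate 1 the members held 0 counts, which allows a share of up to 0.0103%, and in replicate 2 they held 22 counts (0.0363%, 0.024% to 0.0549%). Members had to be listed in a VEGFA site 2 library, and loci listed only without the sgRNA could not be members, so the higher share with the sgRNA follows largely from how they were chosen and is given as a description. Shares are percentages of the counts listed in a library, and intervals and limits cover counting error only, since reads amplified by PCR are not independent molecules. The lists summed to 2855164 and 3182992 counts with the sgRNA against 29017 and 60660 without it, so the non-target lists resolve small shares far less finely.

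The bulge site with the highest mean share lay 215 bp from the start of PPP2CA, which encodes a catalytic subunit of protein phosphatase 2A, and in intron 4 of the overlapping gene ENSG00000273345. It held 4894 counts in VEGFA site 2 replicate 1 and 7356 in replicate 2, which is 0.171% and 0.231% of the listed counts. Its lead over the next site was smaller than its own SD between replicates (0.201% ± 0.0422, n = 2), so the order at the top is not resolved. Its DNA bulge left only 3 mismatches, all in positions 1 to 10, where the same PAM without a gap gives 8. For scale, the on-target site held 52810 and 64011 counts, a mean of 1.93%, and the PPP2CA site reached 10.4% of it. Among all VEGFA site 2 loci the PPP2CA site ranked 79.

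A pair of bulge sites shared 1 target. The site in intron 3 of BMP8B, a gene of the bone morphogenetic protein family, held 3931 and 4977 counts, and the site in intron 3 of its relative BMP8A held 0 and 3522. The 2 copies lay 247545 nt apart on chromosome 1, with the same RNA bulge at 1 of positions 16 to 18, the same 3 mismatches and the same PAM. The reference was identical between them over a run of 253 nt, 127 nt upstream and 107 nt downstream of the target. Reads within that run cannot be assigned to either copy, and the rule by which the lists placed them is not given in the sources used here. Summed over both copies, the counts were 3931 and 8499, or 0.138% and 0.267%, a ratio of 1.94 between replicates. The BMP8A site is therefore counted among the sites of 1 replicate with this limit. Counting the pair as 1 site gave 63 sites, of which 57.1% were in both replicates.

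The next sites were lower and, in each of the following sentences, were listed in both replicates. A DNA bulge in intron 1 of the long non-coding RNA LINC-PINT held 2306 and 3815 counts. An RNA bulge 486 bp from the start of SORCS2, a sorting receptor gene, held 2276 and 2209 counts. An intergenic DNA bulge on chromosome 10, 49406 bp from the CHST15 start, held 2371 and 2077 counts with all 5 of its mismatches in positions 1 to 10. These 3 sites differed by less between them than the LINC-PINT site did between its replicates, so their order is not resolved. An intergenic DNA bulge after position 19, 78314 bp from the HPCAL1 start, held 1594 and 1542 counts. The RNA bulge in intron 1 of TECR, a reductase of very-long-chain fatty acid synthesis, held 1575 and 1415 counts with only 2 mismatches. The RNA bulge 1247 bp from the start of ONECUT2, a transcription factor gene, held 1605 and 1258 counts. The site 139 bp from the start of SOX11, another transcription factor gene, repeated the gap of the PPP2CA target and held 1297 and 772 counts. Along the remaining sites the counts fell to 63, the lowest listed count of any member in a VEGFA site 2 library. The 6 highest sites held 45% and 46.7% of the members' counts in the 2 replicates, and the 15 highest 66.9% and 72.8%. The 15 highest comprised 8 DNA and 7 RNA bulges.

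Gaps gathered in positions 11 to 20 of the guide, the side of the PAM. Of the 46 RNA bulges, 25 skipped position 19, 13 fell within positions 16 to 18, 6 within 11 to 15 or 12 to 16, and 2 at position 9 or 10. All 25 at position 19 also had an ungapped match with 7 or fewer mismatches beside another PAM. The listed counts cannot tell these readings apart. The rule did not let a gap skip position 20, so a target lacking a partner for it could be placed at 19 instead. Of the 18 DNA bulges, 4 lay at position 19, 3 began within 16 to 18 and 11 within 11 to 15, with none nearer the 5′ end. The rule itself can favour some gap places, because a gap far from the PAM shifts fewer bases than a gap near it. The same rule was therefore applied to every NGG in hg38, which gave 44102 gapped sites, all 64 members among them. Of the genomic RNA bulges at position 19, 25 of 7319 were listed (0.342%, 0.232% to 0.504%). For positions 16 to 18 this was 13 of 5372 (0.242%, 0.142% to 0.414%), and for 11 to 15 it was 6 of 7909 (0.0759%, 0.0348% to 0.165%). For positions 2 to 10 only 2 of 11918 RNA bulges were listed (0.0168%, 0.0046% to 0.0612%). These shares pool all mismatch numbers, and the gap places differ in that mix. At 3 mismatches the intervals for RNA bulges at positions 2 to 10 and 19 overlapped (0% to 14.9% and 3.175% to 12.8%). Those at 5 mismatches also overlapped (0.00696% to 0.0925% and 0.0566% to 0.241%). At 4 mismatches they did not (0% to 0.0955% and 0.393% to 1.41%). DNA bulges were listed at 4 of 1534 genomic sites for position 19 (0.261%), 3 of 2263 for 16 to 18 (0.133%) and 11 of 5461 for 11 to 15 (0.201%), and their intervals overlapped. None of the 2326 genomic DNA bulges at positions 2 to 10 was listed, which allows a share of up to 0.165% by the Wilson interval. By gap side alone the shares could not be told apart, at 0.155% (0.0983% to 0.246%) for DNA and 0.142% (0.106% to 0.189%) for RNA bulges, so the larger number of RNA bulges went with a larger number of such sites in the genome.

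Where the gap cannot be placed at 1 position, its first possible place was taken for its base. Of the 18 DNA bulges, 9 held an extra C, 5 an A, 3 a G and 1 a T. Targets with a DNA bulge had no mismatch in positions 11 to 20 in 12 of 18 members, and targets with an RNA bulge in 13 of 46.

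Mismatches stood at the far end from the PAM. Members had 2, 3, 4 or 5 mismatches beside the gap in 4, 26, 19 and 15 cases, and none had fewer. On average 3 fell in positions 1 to 10 and 0.703 in positions 11 to 20, against 2.26 and 2.53 in the genomic gapped sites. No mismatch stood in positions 11 to 20 of 39.1% of members, against 1.7% of the genomic sites. Of the 44102 genomic sites, 35429 had 5 mismatches, against 15 of the 64 members. Contrasts with the genomic sites, here and by position below, therefore mix the number of mismatches with their place. Position 1 was mismatched in 49 members (76.6%, 64.9% to 85.3%) against 30% of genomic sites, and position 2 in 44 (68.8%, 56.6% to 78.8%) against 35.3%. Position 14 was mismatched in 0 of 64 members (upper limit 5.66%) against 30.1%, and position 18 in 1 (1.56%, 0.276% to 8.33%) against 25.6%. Within positions 11 to 20 the most often mismatched was 16, with 13 mismatched members (20.3%, 12.3% to 31.7%) against 40.9%. The first PAM base was A in 25 members, T in 17, C in 15 and G in 7, and each share lay within 6 percentage points of that in the genomic sites.

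The fewer the mismatches, the larger the share of genomic gapped sites that were listed. With 2 mismatches 4 of 24 were listed (16.7%, 6.68% to 35.9%) and with 3 mismatches 26 of 465 (5.59%, 3.84% to 8.07%). With 4 mismatches 19 of 8184 were listed (0.232%, 0.149% to 0.362%) and with 5 mismatches 15 of 35429 (0.0423%, 0.0257% to 0.0699%). Ungapped genomic sites were listed at 60% with 3 mismatches, 16.4% with 4, 3.38% with 5, 0.62% with 6 and 0.0699% with 7. The interval for gapped sites with 2 mismatches overlapped that for ungapped sites with 4 (13.3% to 20.1%), and the interval for 3 overlapped that for ungapped sites with 5 (2.86% to 4%). The mismatch number went with being listed, but among the members it did not order the counts, with a Spearman correlation of -0.12 between mismatches and mean share over 64 sites of the same libraries. The median mean share was 0.00705% for members with 2 mismatches, 0.019% with 3, 0.00739% with 4 and 0.00783% with 5. Members had to be listed, and few sites with many mismatches were. Levels among members therefore cannot show how mismatch number relates to level over all genomic sites.

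The 2-mismatch members differed widely in level. The TECR site held 0.0498% on average, whereas the RNA bulge in the 3′ UTR of THRA, a thyroid hormone receptor gene, held 144 and 218 counts, a mean of 0.00595%. The DNA bulge on chromosome 18, 210320 bp from the CDH2 start, held 465 and 0 counts. The RNA bulge in the pseudogene PPP1R11P1 held 98 and 0 counts. The first 2 were listed in both replicates and the other 2 only in replicate 1.

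DNA bulge sites had a median mean share of 0.0309% and RNA bulge sites one of 0.00959%, both with wide and overlapping ranges, from 0.00147% to 0.201% and from 0.00108% to 0.179%. All members together had a median of 0.0106%. Ungapped loci with 6 and 7 mismatches had medians of 0.0146% and 0.012%, and loci with neither match one of 0.0028%. As loci of 1 pair of libraries are not replicates of a condition, these medians are given without a test.

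The rule admitted only breaks within 3 nt of the cut that the gapped alignment places 3 nt from the PAM, and kept the nearest of equal alignments, so the distances below are partly set by it. The best-fitting listed position was at the expected cut in 49 members, 1 nt away in 14 and 2 nt away in 1. Although the rule allowed it, none was 3 nt away, and none of the loci with such an alignment lay 4 to 6 nt away. Among the 100 separate positions listed for the members, 64% stood exactly at the expected cut, 13% stood 1 nt farther from the PAM and 17% 1 nt nearer to it. For the 667 positions of ungapped loci these were 55.3%, 17.1% and 20.5%. Applied to 11795 windows moved 500 to 5000 nt along the genome from the same loci, the rule found 3 (0.0254%), and at most 0.171% for any 1 of the 20 shifts. None of the 83 loci that only the non-target libraries list met it, which allows a share of up to 3.61%.

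A gap also gives the alignment more freedom, and this was measured on loci that do not need one. Of the 395 ungapped loci, 391 also had a gapped alignment with 5 or fewer mismatches, and in 321 it had fewer mismatches than the ungapped one, in 204 by 2 or more. Having a gapped alignment is thus no mark of the members, which differ from those loci in lacking an ungapped one beside NGG.

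Most members could also be read without a gap beside a weaker PAM. With any 3 bases allowed as PAM, 50 of the 64 had an ungapped match with 7 or fewer mismatches, its cut 1 nt from that of the gapped alignment. For all 35 RNA bulges among them the PAM then reads GGN, and for the 15 DNA bulges it reads NAG, NCG or NTG. For an RNA bulge at position 19 this follows from the geometry, because moving the PAM by 1 nt leaves positions 1 to 18 paired as they were. The ungapped reading had no more mismatches than the gapped one in 13 of the 50, of which 8 were listed in both replicates. The listed counts cannot tell the readings apart. The other 14 members had no such reading and held from 0.0011% to 0.0742% of counts, the chromosome 10 site near CHST15 at their top. They comprised 3 DNA and 11 RNA bulges, and 6 were in both replicates.

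Just inside the limit of 5 mismatches stood 15 members with a median mean share of 0.00783%, 8 of them in both replicates. Just outside it, 3 loci with 6 mismatches had a median of 0.00299% and none was in both replicates. The 2 loci just outside the cut window, with a cut 7 nt away, held 0.00255% and 0.00459% and were in 1 replicate each. The 21 members with 8 ungapped mismatches at the same PAM had a median of 0.00814%, and the 53 loci excluded with 7 had one of 0.0122%.

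Replicates shared 36 of the 64 bulge sites (56.3%, 44.1% to 67.7%). Replicate 1 alone listed 16 and replicate 2 alone 12. Ungapped loci were shared in 68.9% of cases (64.1% to 73.2%), or 61.5% with 6 mismatches and 60% with 7, and loci with neither match in 19.7% (14.1% to 26.9%). The interval of the bulge sites overlapped those of ungapped loci with 6 or 7 mismatches. It did not overlap that of all loci with neither match, but it did overlap that of the 30 among them whose listed sequence holds telomere repeats (36.7%, 21.9% to 54.5%), and the loci with neither match also had the lower median share of counts. DNA bulges were shared in 11 of 18 cases (61.1%, 38.6% to 79.7%) and RNA bulges in 25 of 46 (54.4%, 40.2% to 67.9%), with overlapping intervals.

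Sites in both replicates were those with the higher counts. Their median counts were 750.5 and 754.5 in replicates 1 and 2, from 144 to 7356. The 28 sites of 1 replicate had a median of 235.5 counts, from 63 to 3522, and 25 of them held fewer than 500. The exceptions at the top were the BMP8A site and an RNA bulge in intron 1 of SIN3A, a gene for a transcriptional corepressor, with 0 and 885 counts. The ranges of the 2 kinds overlap. A list that leaves out a position may still have held reads there below an unstated limit, so a 0 is not an absence of cutting. Over the 36 shared sites the ratio of shares between replicates was within 2-fold for 33, with a median absolute log2 ratio of 0.43 against 0.27 for shared ungapped loci. The extremes were log2 ratios of -1.57, at the site in intron 1 of RAB11FIP4 with 1232 and 461 counts, and 1.2. Replicate 2 was the higher in 17 sites and replicate 1 in 19. The Spearman correlation of the counts was 0.89 over these sites, which share their libraries. The listed position was the same in both replicates for 18 sites and differed by at most 6 nt for the other 18.

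Only 2 members had any count without the sgRNA, both in non-target replicate 2. The PPP2CA site held 18 counts there (0.0297%), so that its mean share with the sgRNA was 6.78 times higher by share of listed counts. The direction at this site turned when the libraries were scaled otherwise, with a log2 fold of -0.62 with TMM factors and -0.69 with DESeq2. The on-target site itself held 22 and 60 counts in the non-target libraries (0.0758% and 0.0989%), 19.5 times less than with the sgRNA for replicate 2. Where counts of the VEGFA site 2 target in non-target libraries come from was not tested. For the 62 members at 0, the limit was set by 3 counts over both non-target libraries, 0.00335% of their 89677 counts. Above that limit stood the mean shares of 50 members, from 1.06 times the limit to 43.9 times, the BMP8B site, with a median of 4.36 times. Being listed with the sgRNA was a condition of membership, and 16 of the 50 held 0 counts in 1 of the VEGFA site 2 libraries, the BMP8A site among them, so these ratios describe the resolution of the lists and test nothing. The other 12 lay below that limit, and a difference at them was not detectable at this depth.

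edgeR's quasi-likelihood test over all 689 loci called 18 of the 64 bulge sites higher with the sgRNA (28.1%; adjusted p under 0.05, Benjamini-Hochberg). Of these 689 loci, 83 were listed only in non-target libraries and could not be called higher, while every bulge site was listed with the sgRNA. Over all loci 26.6% were called higher, so the share among bulge sites was near that background, though the 2 sets are not alike. Since the sites were taken from the VEGFA site 2 lists, the direction of these calls was set by that choice, and they are no independent support for it. The 18 calls were 9 DNA and 9 RNA bulges, all listed in both replicates, with mean shares from 0.02% to 0.147% and edgeR adjusted p from 0.0309 to 0.0494. The BMP8B, LINC-PINT, SORCS2, CHST15, HPCAL1, TECR and ONECUT2 sites were among them, with edgeR adjusted p of 0.0309, 0.0314, 0.0309, 0.0309, 0.0309, 0.0309 and 0.0325. Also called were the SOX11 site, the bulges in the first introns of ENSG00000243018, ATOH8, COL26A1, SUSD3 and SNHG22, those in USP43, NIPBL and the PALD1 3′ UTR, and those 80661 bp from SERTAD2 and 110590 bp from SYK. Of the 15 highest sites, 3 were not called, among them the PPP2CA site (log2 fold 3.73, edgeR adjusted p = 0.299) and the BMP8A site (edgeR adjusted p = 0.501). The calls do not hold under other settings. With TMM factors edgeR called 0 of all 689 loci higher, and so 0 bulge sites (9 at an unadjusted p under 0.05). DESeq2, in which 9.42% of the loci with an adjusted p were called higher, called only the BMP8B site among the bulge sites (adjusted p = 0.0188).

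Bulge sites lay on 19 chromosomes, mostly outside coding sequence. Of the 64, 36 were in introns, 21 intergenic, 3 in gene bodies outside the canonical transcript, 2 in 3′ UTRs and 1 in an exon of a pseudogene. The only coding site was an RNA bulge in exon 1 of RBM15, an RNA-binding protein gene, with 592 and 492 counts. Within 1000 bp of the start of a protein-coding gene lay 7 members, 6 of them in both replicates. Besides PPP2CA, SORCS2 and SOX11 these genes included SH2D3A (567 and 1454 counts), ESYT3 (511 and 285 counts) and EGFLAM (287 and 0 counts). The closest members that do not share a target were 10322 nt apart on chromosome 7, so that the sites were separate positions and not clusters of 1 cut.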

How the data were processed

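TTISS-seq break lists of 4 U2OS libraries were analysed, 2 per group by their labels. The deposited values are read counts per listed break position, made by the authors and treated as raw since all are whole numbers and their sums differ between libraries. hg38 is named in the submitters' processing notes, and all 1223 listed 60-nt sequences except 1 stood at their listed position in it. The aligner, the listing rule, duplicate removal and molecular identifiers are not given in the sources used here, so a missing position was entered as 0. Positions count from 1 and lie immediately left of the break. The guide was read from the study's guide list. Its sequence and the values of 1 named site are not reported here.

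Members and lists were chosen with earlier results of these data known. A gap could lie anywhere between guide positions 1 and 20, and a tie between gap positions is given as a range. The alignment with the fewest mismatches, then the nearest cut, was kept. Named sites are the 15 with the highest mean share plus any other that edgeR called or a non-target library listed. Further sites named as examples were chosen after their values were seen. Genes come from GENCODE canonical transcripts.

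Counts were tested with edgeR 4.0.16 (glmQLFit, glmQLFTest, two-sided, total listed count as library size, limma 3.58.1, R 4.3.3) over all loci, with Benjamini-Hochberg adjustment at 0.05. DESeq2 1.42.0, TMM factors, a filter on low counts, a replicate block, other merging distances, other matching limits and leaving out each library were alternatives. P-values measure only the spread between these libraries, which may be technical. The matching was tested on simulated data and found 600 of 600 implanted protospacers. In simulated counts of the 689 loci, 170 of 200 loci changed 64-fold were called in the right direction and 2 unchanged loci were called. The simulated spread came from loci listed in all 4 libraries, and positions left out by a listing rule were not simulated. These rates therefore need not hold for the bulge sites, most of which had no non-target count.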

Additional observations from a re-analysis of the deposited data

How the results depend on the processing

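The number of bulge sites, 64, was between 48 and 51 without 1 VEGFA site 2 replicate, and 63 to 66 with another merging distance, cut window, gap placement, listed sequence or count minimum. It was 49 with at most 4 mismatches and 30 with at most 3, where the members held 1.31% and 0.976% of counts in place of 1.69%. Restricted, after seeing the data, to sites without an ungapped match beside another PAM, 14 sites remained, 42.9% in both replicates, with 0.217% of counts. Without 1 VEGFA site 2 replicate the mean share was 1.62% to 1.76%. The share in both replicates stayed from 54.5% to 60% under every other alternative.

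The count of 18 sites called higher was 0 with TMM factors (9 at an unadjusted p under 0.05 in edgeR), 0 with the replicate block (0 unadjusted) and 1 with DESeq2 (4 unadjusted), which gave no adjusted p for 38 of the 64 sites. The drop was not particular to the bulge sites. With TMM factors and with the replicate block edgeR called 0 of all 689 loci higher. DESeq2 called 9.42% of the loci with an adjusted p higher. Leaving out 1 library leaves a group with a lone library, which is assumed to vary like the other group. Calls from those fits therefore carry no weight here, and they moved in both directions. Without either VEGFA site 2 replicate the count fell, with every call lost. It was 22 or 23 without either non-target library, 19 with the filter on low counts and 15 with merging within 5 nt. The PPP2CA site turned direction with TMM factors (edgeR adjusted p = 0.863, log2 fold -0.62) and with DESeq2 (adjusted p = 0.718, log2 fold -0.69). Its log2 fold was 2.76 without non-target replicate 1. Without non-target replicate 2 it held 0 counts in the remaining non-target library, so no fold is given. The cause of these changes was not tested. No label ties same-numbered libraries to each other, and the difference between replicates 1 and 2 correlated by r = 0.13 between the groups over the 63 loci in all 4 libraries. Depth limits the comparison with the non-target libraries, where 30 members have a mean share below that of 3 counts in replicate 1 and 17 below that in replicate 2.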
